A study of Mus musculus with 4 samples.

Results

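A set of 10 genes that encode neuropeptides or peptide hormones were followed in ATAC-seq peak lists of mouse small cell lung cancer (SCLC) lines, namely *Iapp*, *Calca*, *Calcb*, *Grp*, *Nmb*, *Gal*, *Tac1*, *Sst*, *Cck* and *Vip*. They are 10 of 21938 protein-coding genes and were chosen by name, with earlier results of these data known. Every peak in the gene body or within 50 kb on either side was taken, and the merged peaks of these windows formed 187 of the 357570 regions found in the genome. The gene with the clearest difference was *Iapp*, whose promoter carried one of the highest peaks of both SMC lists and no peak in either non-SMC list. *Calca* had 2 regions near its start with peaks in both SMC lists and no overlapping peak in the non-SMC lists. *Vip* and *Gal* each had 3 and *Calcb* 2 distal regions of the opposite kind, beside other distal peaks of the SMC lists. *Cck* had 3 regions with peaks in both SMC lists only and 1 with peaks in both non-SMC lists only. For the 10 genes together the share of regions on either side was near that of the whole genome.

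Neuropeptides are made as larger precursors, cut by prohormone convertases in dense core granules and released to act on G protein coupled receptors of nearby or distant cells. The neuroendocrine cells of the lung, a cell type in which SCLC can arise, store several of them, and SCLC is known for ectopic secretion of peptides. In ATAC-seq a transposase cuts and tags DNA where chromatin is open, so a peak at one of these genes is a place of accessible DNA and not a measure of the peptide or its mRNA. In a line as a whole, fewer cells with an open site and a less open site in each cell cannot be told apart.

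The data were 4 ATAC-seq libraries, 1 for each of 2 SMC and 2 non-SMC lines. SMC are NCAM hi CD44 lo/- cells and non-SMC are NCAM lo CD44 hi cells, both sorted by FACS from lung tumors of Rb1L/L, Trp53L/L (*RP*) mice and kept as untreated cell lines. The mice had a mixed background of C57Bl/6, Balb-c and S129, and all 4 lines share the deletion of *Rb1* and *Trp53* by Cre from an adenovirus with the CMV promoter, which is not restricted to 1 cell type. The labels call SMC and non-SMC paired and number the lines 1 and 2, so an SMC and a non-SMC line of 1 number form a line pair here, and each type is known from 2 lines only.

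The SMC lists held 91057 and 153954 peaks, lines 1 and 2 in that order, and the non-SMC lists 115837 and 128710. The depth implied by their backgrounds ran from 8.36 M reads in SMC line 1 to 29.4 M in SMC line 2, with 10.4 M and 23.5 M in the non-SMC lines, so a missing peak in a shallow list says only that no peak with p up to 0.01 was called there. A region was called SMC-only when both SMC lists and neither non-SMC list had a peak in it, and non-SMC-only when the reverse held. Each peak is described by its fold enrichment over the local background, by the percentile rank of that value within its own list, and by its -log10 q. All 3 values vary with the depth of a library and were not compared between libraries as levels. Of the markers of the types, the promoter of *Chga* had peaks only in the SMC lists. *Insm1* had promoter peaks in both SMC lists and non-SMC line 1, *Nkx2-1* in both SMC lists and non-SMC line 2, and *Neurod1* in all lists but SMC line 1. *Sox11* and *Ncam1* of the SMC markers and *Vim* and *S100a4* of the non-SMC markers had them in all 4 lists. The other 4 non-SMC markers, *Cd44*, *Wwtr1*, *Yap1* and *Axl*, had promoter peaks at percentiles 68.3 to 98.4 in both non-SMC lists, at 41.7 to 68.2 in SMC line 2 and none in SMC line 1. With 2 libraries a type the smallest two-sided exact permutation p is 0.333, so no test was made and differences are set against the SD between lines.

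The 8 called regions that carry the account are printed here as 201 bases centred on the summit of the higher peak, on the plus strand of GRCm38, the assembly of mm10. They are the 6 regions with a -log10 q of at least 5 in both lines of their type and 2 more non-SMC-only regions that hold an AP-1 motif. Capitals mark matches, on either strand, to the E-box CAGCTG, the E-box CAGGTG and the E-box CAGATG that basic helix-loop-helix factors can bind, the AP-1 motif TGACTCA, the forkhead motif TGTTTAC, the SOX motif ACAAAG or its variant ACAATG, the TEAD motif GGAATG and the cyclic AMP response element (CRE) TGACGTCA. The region at *Iapp* lies just before the transcription start site (TSS), that of *Calca* 1 kb before it, and that of *Sst* in an exon of its neighbour *Rtp2*.
Iapp, SMC-only (chr6:142298197-142298397): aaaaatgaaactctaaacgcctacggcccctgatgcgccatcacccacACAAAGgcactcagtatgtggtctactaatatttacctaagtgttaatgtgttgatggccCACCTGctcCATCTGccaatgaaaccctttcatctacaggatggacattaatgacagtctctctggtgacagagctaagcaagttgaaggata
Calca, SMC-only (chr7:114637324-114637524): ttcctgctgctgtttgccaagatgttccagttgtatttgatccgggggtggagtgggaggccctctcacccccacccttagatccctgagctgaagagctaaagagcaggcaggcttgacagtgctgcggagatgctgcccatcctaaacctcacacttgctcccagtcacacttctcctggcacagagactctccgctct
Sst, SMC-only (chr16:23927601-23927801): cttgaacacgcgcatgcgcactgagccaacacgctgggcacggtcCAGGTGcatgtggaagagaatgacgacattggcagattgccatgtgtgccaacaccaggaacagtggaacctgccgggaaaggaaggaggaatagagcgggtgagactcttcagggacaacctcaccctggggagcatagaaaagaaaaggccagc

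The *Iapp* sequence holds CACCTG and CATCTG, which are CAGGTG and CAGATG on the other strand, and 1 SOX match. The *Sst* sequence holds CAGGTG, and the *Calca* sequence holds none of the motifs. The 5 non-SMC-only sequences come from *Calcb*, *Vip* and *Gal*.
Calcb, non-SMC-only (chr7:114700989-114701189): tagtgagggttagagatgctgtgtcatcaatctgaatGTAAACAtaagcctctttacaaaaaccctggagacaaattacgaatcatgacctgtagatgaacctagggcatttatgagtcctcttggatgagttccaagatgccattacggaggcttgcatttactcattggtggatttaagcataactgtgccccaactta
Vip, non-SMC-only, first (chr10:5633756-5633956): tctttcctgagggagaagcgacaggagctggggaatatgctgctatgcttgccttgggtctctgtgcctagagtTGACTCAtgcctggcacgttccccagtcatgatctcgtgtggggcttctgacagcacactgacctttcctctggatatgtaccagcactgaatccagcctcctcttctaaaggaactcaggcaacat
Vip, non-SMC-only, second (chr10:5688686-5688886): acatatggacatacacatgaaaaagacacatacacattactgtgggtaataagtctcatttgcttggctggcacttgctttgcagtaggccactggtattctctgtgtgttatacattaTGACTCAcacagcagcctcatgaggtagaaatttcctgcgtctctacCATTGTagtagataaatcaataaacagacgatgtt
Gal, non-SMC-only, first (chr19:3377043-3377243): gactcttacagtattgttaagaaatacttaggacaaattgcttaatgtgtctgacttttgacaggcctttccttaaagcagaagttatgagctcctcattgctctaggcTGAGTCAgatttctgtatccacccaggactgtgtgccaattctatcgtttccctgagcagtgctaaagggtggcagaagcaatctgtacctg
Gal, non-SMC-only, second (chr19:3398634-3398834): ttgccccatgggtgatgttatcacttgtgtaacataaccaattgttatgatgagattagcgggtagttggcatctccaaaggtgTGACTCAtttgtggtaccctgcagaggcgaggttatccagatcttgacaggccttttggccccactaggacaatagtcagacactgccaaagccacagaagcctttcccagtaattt

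AP-1 matches stand in the 4 *Vip* and *Gal* sequences printed, of which the second of each gene was printed for its match. The remaining non-SMC-only regions of these genes, *Vip* at +35.1 kb and *Gal* at -26.4 kb, held none. The *Calcb* sequence printed holds a forkhead match. A match of this kind describes letters in the window and is not evidence that a factor was bound.

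The 10 windows were compared between SMC and non-SMC first by the number of peaks. The SMC lines had 50 and 97 peaks in them, and the non-SMC lines had 61 and 57. The SMC mean was 73.5 ± 33.2 (SD, n = 2), the non-SMC mean was 59 ± 2.83 (SD, n = 2), and the difference of 14.5 was smaller than the pooled SD of 23.6. SMC line 2, the deepest library, had the highest number and SMC line 1, the shallowest, the lowest. Within line pairs SMC minus non-SMC was -11 in pair 1 and 40 in pair 2, so the pairs went in opposite directions. Per 100 kb of window the 4 libraries had 4.78, 9.28, 5.84 and 5.45 peaks, in the same order, and the median over all protein-coding genes was 5.70, 9.75, 7.34 and 7.76. The value pooled over the 10 windows thus lay below the median of single genes in each library, which did not hold for every neuropeptide gene taken alone. Among peaks with a -log10 q of 5 or more the order changed to 8, 19, 28 and 11 peaks. The difference of -6 was also smaller than the pooled SD of 10.1. Of all peaks in the whole lists 14.3%, 17.1%, 38.0% and 19.5% reached this -log10 q, so non-SMC line 1 was also highest over the genome. The local background at the peaks had a median of 1.24 times the lowest of its library and a highest value of 2.58 times, reached in non-SMC line 1 in the *Iapp* window.

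**Figure D1:**
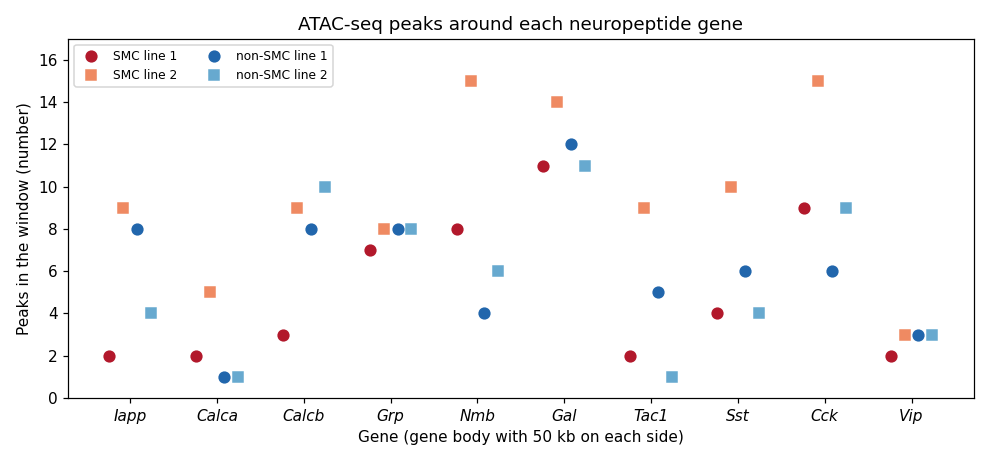
Number of ATAC-seq peaks in the gene body and 50 kb on each side for the 10 neuropeptide genes, 1 symbol per library (red SMC line 1, orange SMC line 2, dark blue non-SMC line 1, light blue non-SMC line 2). SMC line 2 is highest or shares the highest number in 9 of 10 genes, and only *Nmb* and *Calca* have both SMC lines above both non-SMC lines.

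Gene by gene, most of the spread came from SMC line 2. The plot of peak numbers by gene shows that both SMC lines lay above both non-SMC lines at *Nmb*, with 8 and 15 peaks against 4 and 6, and at *Calca*, with 2 and 5 against 1 and 1. At *Gal* the 4 libraries had 11, 14, 12 and 11 peaks and at *Grp* 7, 8, 8 and 8, so these genes had nearly the same number in every line. *Vip* had between 2 and 3 in each library. In 4 genes the line pairs went in opposite directions, *Iapp*, *Gal*, *Tac1* and *Sst*, in each case with fewer peaks in SMC line 1 and more in SMC line 2 than in the non-SMC line of the pair.

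Merging the peaks showed how few regions were shared. Of the 187 regions 143 (76.5%) had a peak in 1 library only, close to the 76.9% of all regions, and 64 of them came from SMC line 2, 32 from non-SMC line 1, 27 from non-SMC line 2 and 20 from SMC line 1. SMC-only regions numbered 10 (5.35%) SMC-only, against 4.37% of all regions. Non-SMC-only regions numbered 11 (5.88%), against 7.33% of all regions. Another 10 had a peak in all 4 libraries, and 5 of these were at most 3 kb from a neighbouring gene's TSS. An SMC-only region was found at 7 of the 10 genes, where 53.4% of all protein-coding genes had one, and a non-SMC-only region at 6 of 10, where 67.9% had one. The median was 1 SMC-only and 1 non-SMC-only region per neuropeptide gene, the same as over all protein-coding genes. These shares are close to the background, so the genes as a group did not stand out in either direction.

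**Figure D2:**
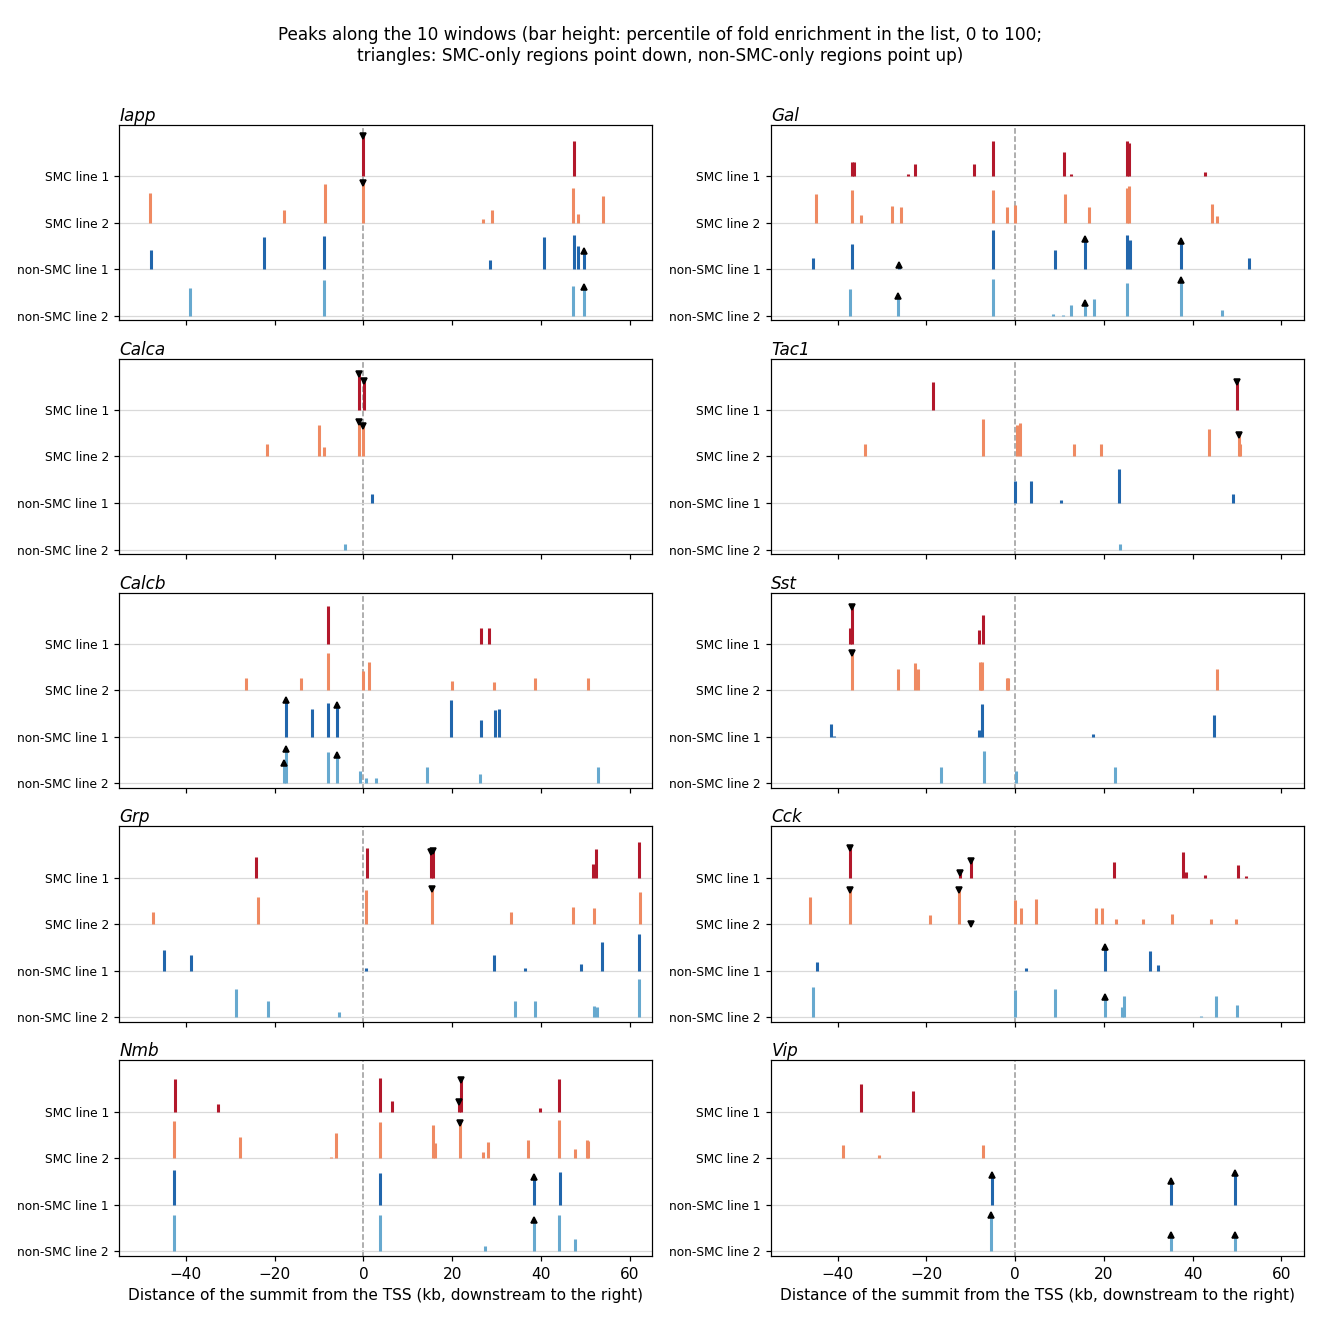
Peaks of each library along the 10 windows, with distance of the summit from the TSS in kb (downstream to the right, dashed line at the TSS) and bar height giving the percentile rank of the fold enrichment in the list of that library. Triangles mark SMC-only regions (down) and non-SMC-only regions (up). *Iapp* and *Calca* have SMC-only regions at the TSS, and the *Vip* window has 3 non-SMC-only regions.

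The promoters, taken as 6 kb centred on the TSS, were compared next. The SMC lines had a promoter peak at 3 and 8 of the 10 genes and the non-SMC lines at 4 and 3, whereas between 62.2% and 69.3% of all protein-coding promoters had one in each library. The SMC mean was 5.5 ± 3.54 (SD, n = 2), the non-SMC mean was 3.5 ± 0.707 (SD, n = 2), and the difference of 2 was smaller than the pooled SD of 2.55, with -1 in line pair 1 and 5 in line pair 2. A single promoter, that of *Iapp*, was SMC-only (3.08% of all promoters were), and none was non-SMC-only (2.45% of all promoters were). No neuropeptide promoter had a peak in all 4 libraries, a state that 48.7% of all promoters had, and *Nmb* and *Vip* had none in any library, as had 19.2% of all promoters. The plot of promoter peaks shows these values for each gene.

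**Figure D3:**
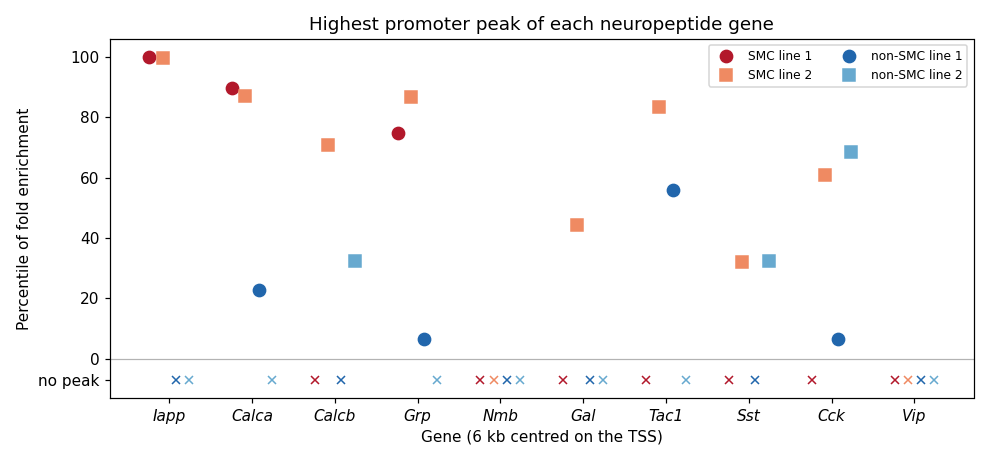
Percentile rank, in its own list, of the highest peak within 3 kb of the TSS of each neuropeptide gene, 1 symbol per library, with crosses where no peak was called. *Iapp* lies at 99.9 and 99.6 in the SMC lines with no peak in the non-SMC lines, and *Nmb* and *Vip* have no peak in any library.

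*Iapp*, *Calca* and *Calcb* belong to the calcitonin family. *Iapp* (chr6:142298423-142303961, plus strand) encodes amylin, which pancreatic beta cells release together with insulin. Its promoter peak had a fold enrichment of 15.7 in SMC line 1 (percentile 99.9, -log10 q 28.8) and 14.4 in SMC line 2 (percentile 99.6, -log10 q 32.8). Neither non-SMC list had a peak within 3 kb. The summits lay at -126 bp and -80 bp from the TSS, on the sequence printed above with its 2 E-box matches and its SOX match, and in an intron of *Slco1a5*, which covers the site. By mean percentile the region, chr6:142297904-142298519, ranked 36 among the 15618 SMC-only regions of the genome. The peaks of the lines overlapped by less than 50% of the longer one, so the region was not counted under a reciprocal overlap of 50%, while the promoter was SMC-only under each alternative tried for the peak lists. The region rested on 29 reads at the summit in SMC line 1 and 37 in SMC line 2, as recovered from the deposited values. A second site at -8.8 kb had peaks in SMC line 2 (9.32-fold), non-SMC line 1 (8.05-fold) and non-SMC line 2 (7.32-fold) and none in SMC line 1. A non-SMC-only region at +49.8 kb in an intron of *Pyroxd1* was weaker, with 3.44-fold and 4.41-fold enrichment and no -log10 q of 5. Its peak in non-SMC line 1 was 1 of 4 neighbours, from +40.7 kb to +49.8 kb, whose local background was 2.46 to 2.58 times the lowest of the library, and the part of this in the call was not tested. The promoter of *Pyroxd1*, at +47.5 kb, had a peak in all 4 lists. The *Iapp* window thus had 2, 9, 8 and 4 peaks, and the difference between the types lay at the promoter and not in the number.

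*Calca* (chr7:114631478-114636357, minus strand) encodes calcitonin, which lowers blood calcium, and by alternative splicing the vasodilator alpha-CGRP, a known product of lung neuroendocrine cells. It had 2 SMC-only regions, a number that 27.9% of all protein-coding genes reached, and no non-SMC-only region. The region at -1.1 kb, chr7:114637104-114637629, had a fold enrichment of 6.53 in SMC line 1 (percentile 89.6, -log10 q 6.45) and 5.45 in SMC line 2 (percentile 87.1, -log10 q 7.88). The other covered the TSS and the first exon, chr7:114635768-114636539, with 4.39-fold (percentile 74.2) and 4.08-fold (percentile 78.0) enrichment and -log10 q of 2.62 and 4.03. The whole promoter was not SMC-only, because non-SMC line 1 had a weak peak of 2.82-fold enrichment (percentile 22.9, -log10 q 0.955) at +1949 bp. With peaks of a -log10 q of at least 5 it became SMC-only beside *Iapp*, and non-SMC line 2 had no peak within 3 kb in either case. Both non-SMC lines had only 1 peak each in the *Calca* window, the lowest numbers of the 10 genes together with *Tac1* in non-SMC line 2.

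*Calcb* (chr7:114718643-114723365, plus strand) encodes beta-CGRP and is the neighbour of *Calca*, but its called regions lay on the other side. It had 2 non-SMC-only regions, a number that 47.1% of all protein-coding genes reached, and no SMC-only region. The region at -17.6 kb, chr7:114700565-114701349, had 10.9-fold enrichment in non-SMC line 1 (percentile 92.1, -log10 q 20.9) and 6.90-fold in non-SMC line 2 (percentile 87.9, -log10 q 7.73). The region at -5.9 kb had 7.27-fold (percentile 80.6) and 4.27-fold (percentile 70.7) enrichment. Between them, at -7.9 kb, a region had a peak in all 4 libraries at percentiles 95.8, 94.4, 84.5 and 80.2, so it was among the higher peaks of the SMC lists too. The promoter had only weak peaks, of 3.56-fold in SMC line 2 and 3.0-fold in non-SMC line 2. The windows of *Calca* and *Calcb* overlap by 17.7 kb, and no peak of any library lay in the overlap, so no peak was counted for both.

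*Grp* and *Nmb* encode the bombesin-like peptides gastrin-releasing peptide, known as an autocrine growth factor in SCLC, and neuromedin B. The promoter of *Grp* had a peak in an exon of the gene of 4.47-fold enrichment in SMC line 1 (percentile 74.9, at +749 bp), 5.36-fold in SMC line 2 (percentile 86.8, at +569 bp) and 2.41-fold in non-SMC line 1 (percentile 6.48, at +534 bp). Non-SMC line 2 had none. The peak of non-SMC line 1 was among the weakest of its list, with a -log10 q of 0.400, and the promoter was SMC-only once each list was shortened to the same number of top peaks or scaled to the depth of SMC line 1. With a -log10 q of at least 5 SMC line 2 alone kept a promoter peak there, as that of SMC line 1 had 2.66. An SMC-only region at +15.5 kb, past the end of the gene and in the noncoding gene *AC152076.4*, had 4.05-fold (-log10 q 2.08) and 6.15-fold (-log10 q 8.74) enrichment. The far end of the window held a peak of all 4 lists in an exon of *Rax*, with 6.76, 4.45, 11.5 and 11.4-fold enrichment.

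*Nmb* (chr7:80902227-80905076, minus strand) had no promoter peak in any list. Its SMC-only region at +21.8 kb had 4.94-fold enrichment in SMC line 1 (percentile 80.4) and 5.90-fold in SMC line 2 (percentile 88.9, -log10 q 9.79). Its non-SMC-only region, at +38.4 kb in an intron of *Zscan2*, had 5.39-fold and 5.12-fold enrichment. The 3 regions with a peak in all 4 lists lay at the promoters of the neighbours *Wdr73*, *Zscan2* and *Sec11a*, all between percentiles 81.0 and 96.2, so the open chromatin shared by the lines around *Nmb* lay at its neighbours.

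*Gal* (chr19:3409915-3414544, minus strand) encodes galanin, a peptide that mostly inhibits neurons and hormone release. Its only promoter peaks were 2 weak ones in SMC line 2, the higher of 2.96-fold enrichment at -59 bp (percentile 44.2). At -4.9 kb a region had a peak in all 4 libraries, of 6.29, 4.61, 14.4 and 8.61-fold enrichment at percentiles 88.8, 82.4, 97.6 and 93.1, the highest ranks of the window in both non-SMC lists. In all, 3 regions were non-SMC-only, a number that 30.3% of all genes reached, and none was SMC-only. That at +37.4 kb, in an intron of *Cpt1a* at chr19:3376923-3377286, had 5.45-fold enrichment in non-SMC line 1 (percentile 69.9, -log10 q 7.62) and 7.38-fold in non-SMC line 2 (percentile 89.7, -log10 q 9.10). That at +15.8 kb, in an intron of *Tesmin*, had 6.47-fold and 2.97-fold enrichment, and both hold the AP-1 match shown above. The region at -26.4 kb was weak, with 2.53-fold and 3.15-fold enrichment.

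*Tac1* (chr6:7554879-7565834, plus strand), which encodes substance P and neurokinin A, had unequal numbers of peaks in the lines of each type. The 4 lists had 2, 9, 5 and 1 peaks in its window. SMC line 2 had a high peak of 8.27-fold enrichment at -7.3 kb (percentile 95.3) that no other list had. Non-SMC line 1 had one of 8.48-fold at +23.4 kb (percentile 85.5), beside which, without overlap, non-SMC line 2 had a weak peak of 2.44-fold at +23.7 kb (percentile 14.1). The promoter had peaks in SMC line 2 (4.73-fold, percentile 83.4) and in non-SMC line 1 (4.02-fold, percentile 55.8, at -42 bp) and none in SMC line 1 or non-SMC line 2, the 2 shallower libraries. Its SMC-only region lay downstream of the gene, at +50.1 kb, with 4.12-fold and 3.15-fold enrichment and no -log10 q of 5.

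*Sst* (chr16:23889573-23890958, minus strand) encodes somatostatin, which inhibits the release of many hormones. Its SMC-only region at -36.7 kb, chr16:23927432-23927957, had 7.01-fold enrichment in SMC line 1 (percentile 91.6, -log10 q 7.43) and 7.55-fold in SMC line 2 (percentile 94.0, -log10 q 14.1). After that of *Iapp* it was the SMC-only region with the highest rank, 1891 of 15618, and it lies in *Rtp2*, so its assignment to *Sst* rests on distance alone. Nearer to the gene, a region at -7.4 kb had a peak in all 4 lists, of 4.25, 3.67, 8.15 and 5.85-fold enrichment at percentiles 73.0, 71.9, 84.2 and 82.8. Its -log10 q was 2.33 and 2.50 in the SMC lines and 19.2 and 6.79 in the non-SMC lines. With peaks of a -log10 q of at least 5 it was thus non-SMC-only. The promoter had weak peaks in SMC line 2 (2.76-fold) and non-SMC line 2 (3.0-fold) only. Of the 8 neuropeptide promoters with a sequence it was the one with a CRE match.

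*Cck* (chr9:121489824-121495694, minus strand) encodes cholecystokinin, which contracts the gallbladder and stimulates the release of pancreatic enzymes. It had 3 SMC-only regions, a number reached by 13.5% of all protein-coding genes, all upstream, and 1 non-SMC-only region downstream. The region at -37.1 kb, within the noncoding gene *Gm47095*, had 4.60-fold (percentile 76.1) and 5.21-fold (percentile 86.3) enrichment. The region at -12.7 kb had 2.67-fold enrichment in SMC line 1 (percentile 12.4) and 5.19-fold in SMC line 2 (percentile 86.3), and that at -9.9 kb was at percentiles 42.4 and 1.17. The lines thus differed most in rank at the 2 regions nearer to the gene, and none of the 3 had a -log10 q of at least 5 in both lines. The non-SMC-only region at +20.2 kb had 4.31-fold and 3.33-fold enrichment. At the promoter itself SMC line 2 had a peak of 3.27-fold at -18 bp (percentile 61.0) and non-SMC line 2 one of 4.18-fold at -63 bp (percentile 68.6). The peaks nearest to the TSS thus came from 1 line of each type. Non-SMC line 1 had a weak promoter peak of 2.41-fold at +2549 bp (percentile 6.48), and SMC line 1 had none. This promoter is printed as the 250 bases before the RefSeq start (GRCm38.p6, chr9:121495695-121495944, minus strand), since it holds both CAGGTG and CAGATG and a forkhead match that overlaps the latter.
Cck, promoter (chr9:121495695-121495944): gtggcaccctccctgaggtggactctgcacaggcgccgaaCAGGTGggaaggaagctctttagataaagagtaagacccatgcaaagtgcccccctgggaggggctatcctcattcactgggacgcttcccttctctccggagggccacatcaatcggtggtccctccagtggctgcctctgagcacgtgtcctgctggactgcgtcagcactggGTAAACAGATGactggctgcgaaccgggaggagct

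*Vip* (chr10:5639218-5647617, plus strand) encodes vasoactive intestinal peptide, which relaxes smooth muscle and widens vessels and airways. It had no promoter peak in any list. SMC line 1 had 2 peaks in the window and SMC line 2 had 3, none shared between them. Each non-SMC line had 3 peaks, and all 3 fell in the same places, so every peak of the non-SMC lists in this window was in a non-SMC-only region. At -5.4 kb, chr10:5633704-5634187, the enrichment was 6.44-fold in non-SMC line 1 (percentile 76.2, -log10 q 8.53) and 7.93-fold in non-SMC line 2 (percentile 91.2, -log10 q 9.33). At +49.6 kb it was 7.24-fold (percentile 80.3) and 3.05-fold (percentile 41.7), and at +35.1 kb 4.43-fold (percentile 60.8) and 3.05-fold (percentile 41.7). As for *Gal*, 30.3% of all genes had 3 or more non-SMC-only regions.

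**Figure D4:**
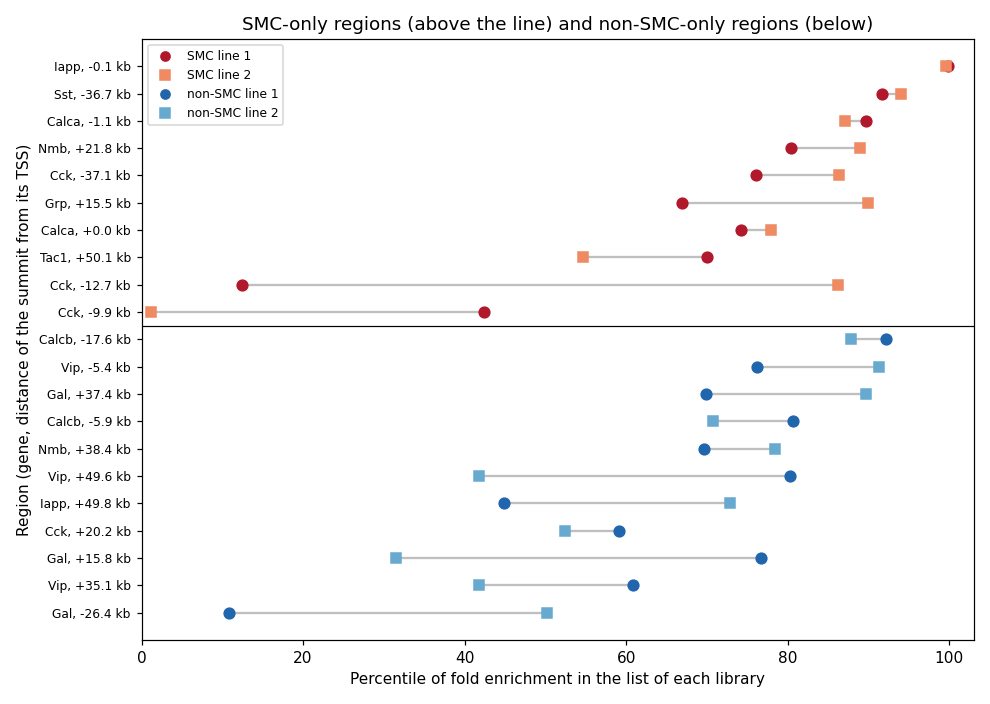
Percentile rank of fold enrichment in both lines of the type for each SMC-only region (upper part) and non-SMC-only region (lower part), with 1 symbol per library joined by a grey line. *Iapp* lies at the right edge in both SMC lines, and *Cck* at -12.7 kb shows the widest gap, from 12.4 to 86.3.

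Not all of these calls rested on equally firm peaks. Of the 10 SMC-only regions 3 had a -log10 q of at least 5 in both SMC lines (*Iapp*, *Calca* at -1.1 kb and *Sst*), 4 in 1 line and 3 in none. Of the 11 non-SMC-only regions the numbers were 3 (*Calcb* at -17.6 kb, *Gal* at +37.4 kb and *Vip* at -5.4 kb), 5 and 3. The plot of the called regions shows that the SMC lines gave like ranks at *Iapp*, *Sst* and *Calca* and unlike ranks at *Cck* -12.7 kb and -9.9 kb. Ranks were also unlike at non-SMC-only regions, such as *Gal* at +15.8 kb (percentiles 76.7 and 31.5). *Vip* at +49.6 kb and *Gal* at -26.4 kb were others. When all peaks were scaled to the depth of SMC line 1, 8 of the 10 and 10 of the 11 calls were made again. Scaling removed called peaks and added none, so it cannot show a peak that a shallow list missed. It also left the lists unequal. On the chromosomes of the 10 genes the SMC lines kept 27692 and 12131 peaks and the non-SMC lines 18786 and 28301.

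Motifs were counted within 100 bp of the summit. Of the 10 SMC-only regions 2 held CAGCTG, 2 CAGGTG and 2 CAGATG, where 21.1%, 31.6% and 19.6% of all SMC-only regions held them, and none held AP-1, as against 4.19%. Of the 11 non-SMC-only regions 4 (36.4%) held AP-1, where 46.8% of all non-SMC-only regions and 11.3% of all regions held it, and these were the *Vip* and *Gal* sequences printed above. SOX matches stood in 3 regions of the SMC-only kind and 5 of the non-SMC-only kind (40.5% and 27.5% of all such regions), forkhead matches in 1 and 1 (9.40% and 3.25%), TEAD matches in 0 and 1 (9.48% and 19.3%), and CRE matches in 0 and 1 (0.359% and 0.446%). With so few regions these are descriptions, and the motifs may overlap one another.

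The RefSeq promoter table, with 250 bases before and 50 after the start, held 8 of the 10 genes, all but *Calcb* and *Grp*. CAGGTG was found in *Cck* and *Iapp* (20.2% of all 32851 promoters), CAGATG in *Cck*, *Iapp* and *Tac1* (17.2%), CAGCTG in *Calca* (16.3%), CRE in *Sst* (1.79%), forkhead in *Cck* (3.65%) and SOX in *Iapp* (28.6%). AP-1 and TEAD were in none of the 8, against 5.20% and 14.7% of all promoters.

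The genes through which these peptides are stored and sensed were looked at in the same way. Of 10 granin and prohormone processing genes, 2 promoters were SMC-only (3.08% of all promoters), 0 non-SMC-only (2.45%) and 3 open in all 4 libraries (48.7%). The SMC-only ones were *Chga* and *Scg3*, which encode granule proteins. *Scg3* had 9.77-fold enrichment in SMC line 1 (percentile 97.3) and 17.04-fold in SMC line 2 (percentile 99.9). The convertase gene *Pcsk1*, whose product cuts precursors, had promoter peaks of 6.38-fold and 8.52-fold in the SMC lines, 3.62-fold in non-SMC line 1 and none in non-SMC line 2. Of 22 receptor genes of the 10 peptides, 5 promoters were SMC-only (*Ramp2*, *Calcr*, *Galr1*, *Galr2* and *Cckbr*), 0 non-SMC-only and 5 open in all 4 libraries, against the same 3.08%, 2.45% and 48.7% of all promoters. The last include the neuromedin B receptor gene *Nmbr* and the somatostatin receptor gene *Sstr2*. At none of the 5 SMC-only receptor promoters did the highest peak have a -log10 q of at least 5 in either SMC line. *Grpr*, the receptor for gastrin-releasing peptide, had promoter peaks in SMC line 1 (5.44-fold) and non-SMC line 2 (2.44-fold).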

How the data were processed

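ATAC-seq peak lists of 2 SMC and 2 non-SMC lines were analyzed. Per the labels and the study's methods, the authors mapped reads to mm10 with Bowtie2 2.3.4, used samtools and sambamba for sorting and removal of duplicates, and called peaks with MACS2 2.1.1 in each library separately. The settings of the peak calling are not given in the sources used here. Fold enrichment, as deposited, was read as the ratio of summit pileup to local background after a constant is added to both. It is thus lower than the plain ratio, most so where the background is low. At the *Iapp* promoter in SMC line 1, 29 reads over a background of 0.909 gave 15.7-fold. The authors also gave -log10 p-values and -log10 q-values. All deposited peaks had a p-value up to 0.01. The authors' score is 10 times the -log10 p without its decimals (2 peaks differ) and was not used.

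Only autosomes, X and Y were used, which removed 61 to 85 peaks per list. Genes and TSS (the 5′ end of the gene) came from GENCODE M21, and sequences from RefSeq's GRCm38. Windows were gene bodies with 50 kb on each side, and peaks overlapping by at least 1 base were merged into regions across libraries. Percentiles are ranks of fold enrichment within a list, with ties averaged. Pileup and background were recovered from fold enrichment and p, and the lowest background gave the depth, assuming the mouse genome size preset in MACS2 and the shortest peak as fragment length. On 20000 simulated peaks 99.8% were recovered within 1%, and 19796 merged regions were compared with bedtools, of which 0 differed. Pileups and depths cover counting error only. Replicates are separate lines with 1 library each, numbered 1 and 2 in the labels, and the numbers were used as a block only as an alternative.

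All 10 genes are named, with the highest promoter peak in each library and, per gene and call, the 3 regions with the highest mean percentile. Lists of receptors, other precursors, granin and processing genes and cell type markers were read beside them, and 1 marker is not reported here. Regions named for other reasons, such as those at *Iapp* -8.8 kb and *Tac1* -7.3 kb, and the receptors and precursors described with values, were chosen after their values were seen. The members and lists were chosen with earlier results of these data known. Alternatives were lists limited to a -log10 q of 5 or more or cut to the length of the shortest, scaling to the depth of SMC line 1, each library left out, the block, windows of 20 kb and 100 kb, promoters of 2 kb, the TSS of every transcript, a reciprocal overlap of 50%, and motifs within 50 bp or 250 bp. The tools were bedtools 2.31.1 and Python 3.11.15 with pandas 2.3.3, numpy 2.4.6, matplotlib 3.10.9 and scipy 1.17.1.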

Additional observations from a re-analysis of the deposited data

Results flagged for a closer look

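SMC minus non-SMC went in opposite directions in the 2 line pairs for 6 of the values. For the number of peaks in the 10 windows it was -11 in pair 1 and 40 in pair 2, and for the number of promoters with a peak it was -1 and 5. For single genes it was -6 and 5 peaks at *Iapp*, -1 and 3 at *Gal*, -3 and 8 at *Tac1* and -2 and 6 at *Sst*. Pair 1 holds the shallowest library (SMC line 1, 8.36 M reads) against a deep one (non-SMC line 1, 23.5 M), and pair 2 the deepest (SMC line 2, 29.4 M) against a shallow one (non-SMC line 2, 10.4 M). The difference between the pairs was not tested, as each pair holds 1 library of a type, and the part of depth in it cannot be told apart from that of the lines. After scaling to the depth of SMC line 1 the difference in peaks over all windows was -5.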

How the results depend on the processing

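The number of peaks in the windows and of promoters with a peak moved by less than the SD between lines under each alternative, but the sign was not fixed. With 2 lines a type, leaving 1 out cannot move the difference by more than that SD, and the replicate block gives the same mean. The outcome of these settings was thus set in advance and says nothing about stability. SMC minus non-SMC in peaks was 14.5 with all lists, -6 with a -log10 q of at least 5, -5 with peaks scaled to the depth of SMC line 1, 8.5 with lists of equal length, and between -9 (without SMC line 2) and 38 (without SMC line 1) with 1 library left out. For promoters it was 2, and between -0.5 (without SMC line 2) and 4.5 (without SMC line 1) with 1 library left out.

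Counts of called regions depended more on the choices. SMC-only regions numbered 10, but 3 with a -log10 q of at least 5 and 21 with 100 kb on each side, and between 12 and 74 with 1 library left out, 74 without SMC line 1 and 33 without SMC line 2. Genes with such a region numbered 7, but 3 with a -log10 q of at least 5, and between 7 and 10 with 1 library left out. Those with CAGCTG numbered 2, but 0 with a -log10 q of at least 5, 5 with 100 kb on each side and 4 with the motif sought within 250 bp, and between 2 and 17 with 1 library left out. SMC-only promoters numbered 1, but 2 with a -log10 q of at least 5, 3 with lists of equal length, 3 with scaled depth and 2 with a promoter of 2 kb, and between 1 and 3 with 1 library left out, 3 without non-SMC line 1. Non-SMC-only regions numbered 11, but 4 with a -log10 q of at least 5, 5 with 20 kb and 24 with 100 kb on each side, and between 12 and 43 with 1 library left out, 39 without non-SMC line 1 and 43 without non-SMC line 2. Of the 4, 3 were among the 11 and 1 was a new call, at *Sst* -7.4 kb. Genes with a non-SMC-only region numbered 6, but 4, *Sst* among them, with a -log10 q of at least 5 and 10 with 100 kb on each side, and between 6 and 10 with 1 library left out. Those with AP-1 numbered 4, but 2 with a -log10 q of at least 5, 2 with 20 kb and 13 with 100 kb on each side, and between 4 and 6 with 1 library left out. Non-SMC-only promoters numbered 0, but 1 with the TSS of every transcript, and between 0 and 1 with 1 library left out, the 1 without SMC line 2. With 1 library left out a call needs 1 peak fewer, or 1 list fewer without a peak, so more regions can pass.

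The replicate block, which takes the lines in pairs by their number, gave 57.5 SMC-only regions, 12 with CAGCTG and 3 SMC-only promoters, and 44 non-SMC-only regions, 6 with AP-1 and 1 non-SMC-only promoter, as means of the 2 pairs. It gave 10 genes with an SMC-only and 10 with a non-SMC-only region. The labels call SMC and non-SMC paired, and whether lines of a number came from 1 tumor was not tested. Of the single calls, 8 of 10 SMC-only and 10 of 11 non-SMC-only regions were made again at scaled depth, a setting that can only remove peaks. The calls lost were *Tac1* at +50.1 kb, *Cck* at -9.9 kb and *Gal* at -26.4 kb. The limits are 2 lines of each type, depths that differ between them, and lists that show where a peak was called but not how open a site without one was.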

Other observations

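Of 20 other genes for peptide precursors, 0 promoters were SMC-only (3.08% of all promoters), 3 non-SMC-only (2.45%), 3 had a peak in all 4 libraries (48.7%) and 2, those of *Nts* and *Pomc*, had none in any (19.2%). The non-SMC-only ones were *Nmu*, *Adcyap1* and *Oxt*, which encode neuromedin U, the peptide PACAP and oxytocin. *Nmu* had promoter peaks of 4.02-fold enrichment in non-SMC line 1 (percentile 55.8) and 3.66-fold in non-SMC line 2 (percentile 61.1), and those of the other two were also below percentile 70 in both lists. Within 50 kb of the gene, 10 of the 20 had an SMC-only region (53.4% of all protein-coding genes) and 12 a non-SMC-only region (67.9%), both shares below those of all genes. *Adm*, which encodes adrenomedullin, had promoter peaks at percentiles 87.5 and 77.9 in the non-SMC lists and at 78.1 in SMC line 2, all more than 2.5 kb downstream of the TSS, and none in SMC line 1.

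The receptor genes had an SMC-only region within 50 kb at 15 of 22 genes (53.4% of all protein-coding genes) and a non-SMC-only region at 15 of 22, or 68.2%, close to the 67.9% of all genes. The granin and processing genes had them at 9 and 7 of 10, against the same 53.4% and 67.9%. *Nmbr*, the receptor for neuromedin B, had a promoter peak in all 4 lists, at percentiles 88.1, 94.6, 93.8 and 41.7, while *Nmb* itself had none.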
